A study of Homo sapiens with 6 samples.

Results

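The 9 human genes that encode cyclins A, B, D and E (CCNA1, CCNA2, CCNB1, CCNB2, CCND1, CCND2, CCND3, CCNE1 and CCNE2) were examined in MCF10A cells, an established line of non-tumorigenic human breast epithelial cells. They were taken by exact symbol from the deposited RNA-seq table, which lists 41656 loci and 26822 distinct gene symbols. Each of the 9 symbols had 1 row and shared its row with no other symbol. The cells came from 2 groups of 3 samples each, which were transfected for 72 hours with 30 nM of a non-targeting control siRNA (siNT) or of siRNAs against the transcription factor PAX9 (siPAX9). Both groups were grown in the same medium, which held epidermal growth factor, insulin, hydrocortisone, cholera toxin and horse serum, and they represent 1 cell line at 1 time point. The table holds 1 pooled FPKM per gene and group. FPKM is a fragment count scaled by transcript length and by mapped reads, so that levels can be compared between genes of different length. No value per sample was used here, so the spread between samples is unknown, no test could be made, and each difference below is given by its size alone.

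Cyclins are the regulatory subunits of the cyclin-dependent kinases (CDKs), and their classes act in succession. D-type cyclins bind CDK4 and CDK6 in G1 in response to growth factors, and E-type cyclins bind CDK2 at the entry into S phase. A-type cyclins bind CDK2 and CDK1 in S phase and G2, and B-type cyclins bind CDK1 and drive mitosis. The mRNAs of cyclins A2, B1 and B2 accumulate in S and G2 of each division and are nearly absent from resting cells, whereas D-type cyclin mRNAs depend mainly on mitogenic signals.

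The mRNAs of all 4 A-type and B-type cyclins were at least 2-fold lower in siPAX9 than in siNT, and none of the 5 D-type and E-type cyclins was past 2-fold in either direction. Among the 13264 symbols with a mean FPKM of at least 1 in the 2 groups, which include all 9 cyclins, 6.9% were at least 2-fold lower and 6.82% were at least 2-fold higher. The log2 ratios of siPAX9 to siNT ran from -2.28 to -1.60 for cyclins A and B and from -0.22 to 0.86 for cyclins D and E, so the ranges did not overlap. The median log2 ratio of all 13264 symbols was -0.07, and scaling both groups to the same FPKM total, an alternative, raised every log2 ratio by 0.19. That scaling put the median at 0.12, and its totals include loci without a symbol. No cyclin changed the sign of its ratio under that scaling, but CCND1 was then past 2-fold higher (1.06). Of all symbols, 4.74% were then at least 2-fold lower and 9.15% at least 2-fold higher. In bulk RNA, fewer cells in a given phase and less of an mRNA per cell cannot be told apart.

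**Figure D1:**
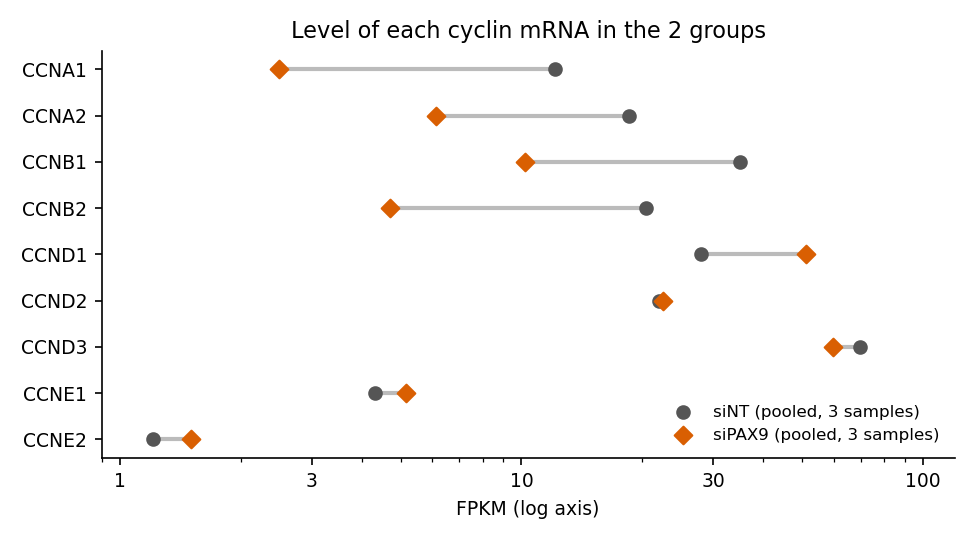
Pooled FPKM (log axis) of each of the 9 cyclin mRNAs, with a grey circle for siNT and an orange diamond for siPAX9, joined by a line. The 4 A-type and B-type cyclins lie to the left in siPAX9, CCND1 lies to the right, and the other D-type and E-type cyclins differ little.

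PAX9, the siRNA target, was at 2.80 FPKM in siNT and at 0.325 in siPAX9 (log2 ratio -3.10, or -1.52 with 1 added to each FPKM). Its locus (chromosome 14, 37126773 to 37642998) was not checked for overlapping genes. The cells carried the basal breast epithelial markers KRT5, KRT14, KRT17, TP63 and ITGB4 in both groups, with KRT5 at 1558 FPKM in siNT and 1807 in siPAX9 and TP63 at 35.4 and 25.3. Of the 7 luminal markers, 4 had a mean FPKM of at least 1 (their list summed to 304 in siNT and 202 in siPAX9), namely KRT18 at 212 and 119, EPCAM at 34.3 and 16.7, KRT8 at 51.7 and 58.7 and GATA3 at 6.19 and 7.56, and the estrogen receptor ESR1 was below that level, at 0.0560 and 0.317. Among leukocyte markers, CD3E was listed at 0 in both groups, CD68 was at 3.38 and 3.77, ITGAM at 0.234 and 0.691, and PTPRC at 0.0166 and 0.0922. Endothelial markers summed to 3.38 and 2.46, with PECAM1 at 2.58 and 0.495 and KDR at 0.798 and 1.94. Fibroblast markers summed to 6.40 in siNT and 42.2 in siPAX9, mainly through DCN, with COL1A1 at 0.454 and 4.13 and COL3A1 listed at 0 in both. The 11 markers of stratified epithelial differentiation summed to 35.4 in siNT and 624 in siPAX9. Those above an FPKM of 1 in siNT were KRT10 (7.06-fold higher in siPAX9), TGM1 (10.6 and 53.6) and SPRR1B (3.18 and 334), whereas IVL, KRT13, SPRR1A and SPRR3 reached a mean of 1 only through siPAX9. The part of these markers in the cyclin values was not tested.

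CCNB1 encodes cyclin B1, the main partner of CDK1 in mitosis. Its FPKM was 35.1 in siNT, the second highest of the 9 cyclins, and 10.2 in siPAX9, which is 3.43-fold lower (log2 ratio -1.78). Cyclin B2, which also binds CDK1 and is found largely at the Golgi, was at a lower level and showed a larger ratio. The FPKM of CCNB2 was 20.4 in siNT and 4.71 in siPAX9, 4.34-fold lower (log2 ratio -2.12). The B-type sum therefore went from 55.5 in siNT to 14.9 in siPAX9, and CCNB1 exceeded CCNB2 by 1.72-fold in siNT and by 2.17-fold in siPAX9.

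CCNA2 encodes cyclin A2, the A-type cyclin of most dividing somatic cells. Its FPKM was 18.6 in siNT and 6.12 in siPAX9, 3.03-fold lower (log2 ratio -1.60), the smallest fold difference of the 4. CCNA1 encodes cyclin A1, which is best known from the testis and from some leukemias. Its FPKM was 12.1 in siNT and 2.49 in siPAX9, 4.85-fold lower (log2 ratio -2.28), the largest fold difference of the 9 cyclins as deposited. Both A-type mRNAs were thus present in siNT at similar levels, with CCNA2 at 1.54 times CCNA1, and the ratio was 2.45 in siPAX9. With 1 added to each FPKM, the log2 ratio of CCNA1 (-1.906) was no longer the lowest, and that of CCNB2 was -1.909.

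Few genes of the table lay below these cyclins. Of the 13264 symbols, 160 had a lower log2 ratio than CCNA1 (1.21%), 179 a lower one than CCNB2 (1.35%), 260 a lower one than CCNB1 (1.96%) and 333 a lower one than CCNA2 (2.51%). At a 4-fold threshold, CCNA1 and CCNB2 passed, as did 207 of all symbols (1.56%).

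**Figure D2:**
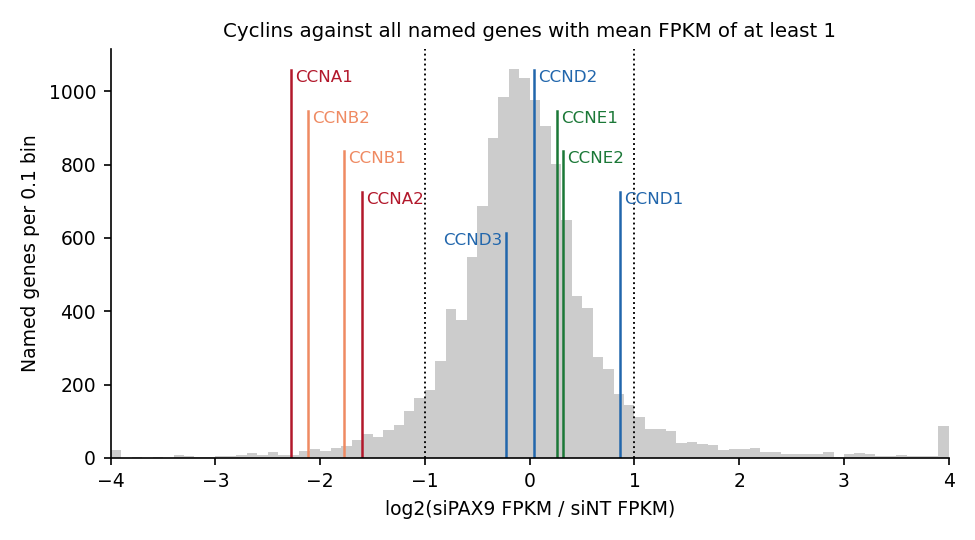
Histogram of the log2 ratio of siPAX9 to siNT FPKM for the named genes with a mean FPKM of at least 1 (x axis, in bins of 0.1, values past 4 in either direction placed in the end bins, genes listed at 0 in 1 group left out), with a coloured line for each of the 9 cyclins and dotted lines at a 2-fold difference. CCNA1, CCNB2, CCNB1 and CCNA2 stand in the left tail, between -2.28 and -1.60, and CCND1 stands at 0.86.

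The promoters of CCNA2, CCNB1 and CCNB2 are shown because elements that time transcription to S phase and G2 are known in the promoters of these genes, and that of CCNE1 is shown beside them as a cyclin that was not lower. The CCAAT box is bound by the trimer NF-Y, and the cell cycle genes homology region (CHR) is bound by the DREAM complex in resting cells and by MYBL2 and FOXM1 complexes in G2. RefSeq promoter sequences, which run from 250 bases before to 50 bases after an annotated start, were at hand for 6 of the 9 genes (CCNA1, CCNA2, CCNB1, CCNB2, CCND3 and CCNE1), and CCND1, CCND2 and CCNE2 had no entry. The sequences below run 5′ to 3′ on the strand of the gene, from 130 to 21 bases before the start, and were placed on GRCh37 by an exact match. Capitals mark CCAAT on either strand (ATTGG where it lies on the opposite one) and the CHR-type hexamers on either strand. The hexamers searched were TTTGAA, the form in many CHR elements, with its close forms TTCGAA, then TTTAAA, and also TTGAAA, which reads TTTCAA on the opposite strand.
CCNA2, chr4:122745059-122745168, minus strand: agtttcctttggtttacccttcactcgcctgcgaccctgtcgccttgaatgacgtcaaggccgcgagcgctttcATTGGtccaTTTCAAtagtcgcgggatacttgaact
CCNB1, chr5:68462847-68462956, plus strand: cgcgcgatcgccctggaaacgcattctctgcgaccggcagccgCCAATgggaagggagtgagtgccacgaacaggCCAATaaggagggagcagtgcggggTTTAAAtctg
CCNB2, chr15:59397215-59397324, plus strand: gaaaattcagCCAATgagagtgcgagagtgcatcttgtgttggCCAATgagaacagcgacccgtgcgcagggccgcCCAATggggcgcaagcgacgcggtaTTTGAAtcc
CCNE1, chr19:30302768-30302877, plus strand: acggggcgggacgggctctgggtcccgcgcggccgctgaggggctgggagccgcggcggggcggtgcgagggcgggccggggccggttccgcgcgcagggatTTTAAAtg

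CCNB1 and CCNB2 showed the same arrangement, with CCAAT boxes that begin 87 and 55 bases before the start in CCNB1 and 120, 87 and 54 bases before it in CCNB2. Each was followed by a CHR-type hexamer that begins 30 bases before the start in CCNB1 and 29 bases before it in CCNB2. CCNB2 held another CCAAT and another CHR-type hexamer farther upstream, 244 and 193 bases before the start. CCNA2 held 1 CCAAT at 56 bases and 1 match to the hexamers searched at 47 bases before the start, and TGACGTCA, the cyclic AMP response element, at 81 bases before it. The stretch CTTGAA near the end of the printed CCNA2 sequence, where the CHR of that promoter has been described, was not among the hexamers searched and stands in lower case. CCNE1, whose mRNA was not lower, held a CHR-type hexamer at 28 bases before the start and no CCAAT. Of the 3 CCND3 starts, 2 had 1 CCAAT and none had a CHR-type hexamer. The CCNA1 window held no match to any motif searched, although CCNA1 had the largest fold difference as deposited.

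These letters are common. Of 35116 RefSeq promoters of the same length, 34.6% held CCAAT, 10.8% held at least 2, 30.5% held any of the 4 CHR-type hexamers, and 3.47% held at least 2 CCAAT with a CHR-type hexamer, as CCNB1 and CCNB2 did. The cyclic AMP response element was in 1.85% of promoters. TTTNNCGC, a form of the E2F site, was in 6.89% of promoters and in none of the 8 windows of the 6 cyclin genes. Other forms of the E2F site were not searched, so their absence cannot be read from this.

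The PAX9-binding sequences GCGTGACCA and GCGGAACGG were searched on both strands, and other sequences known to be bound by PAX9 were not searched. The first was in 0.157% of all promoters and in none of the cyclin windows. The second was in 0.225% of all promoters and in the window of CCNB1, where it begins at base 12 after the start. It stands in capitals in the first 30 bases after that start.
CCNB1, chr5:68462977-68463006, plus strand: ggcgtgctgcgGCGGAACGGctgttggttt
A match describes these letters and does not show that a factor binds there.

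**Figure D3:**
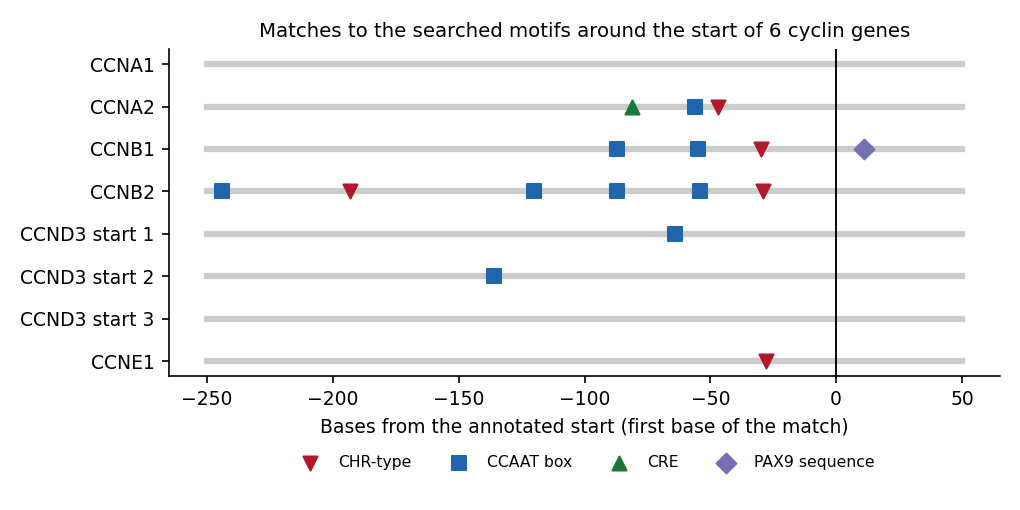
Position of each motif match (x axis, bases from the annotated start, from 250 before to 50 after) in the RefSeq promoter windows of 6 cyclin genes, with 1 line per start. CCNB1 and CCNB2 have CCAAT boxes (blue squares) followed by a CHR-type hexamer (red triangles) about 30 bases before the start, and CCNA1 has no match.

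The D-type cyclins link growth factor signals to CDK4 and CDK6, and they showed no common direction. CCND1 (cyclin D1) was at 28.1 FPKM in siNT and at 51.1 in siPAX9, 1.82-fold higher (log2 ratio 0.86). Its log2 ratio was above that of 91.6% of all symbols, and it was 1.06 after scaling to equal totals, which takes it past 2-fold. CCND2 (cyclin D2) was at 22.0 and 22.6, a log2 ratio of 0.04. CCND3 (cyclin D3), the most abundant of the 9 in both groups, was at 69.9 in siNT and 59.8 in siPAX9, a log2 ratio of -0.22. Both lay inside the central range of all symbols, whose quartiles were -0.41 and 0.29. CCND3 exceeded CCND1 by 2.49-fold in siNT and by 1.17-fold in siPAX9.

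The E-type cyclins, which activate CDK2 for the start of DNA replication, were the least abundant of the 4 classes. CCNE1 (cyclin E1) was at 4.31 FPKM in siNT and at 5.15 in siPAX9, a log2 ratio of 0.26. CCNE2 (cyclin E2) had 1.21 and 1.51, a log2 ratio of 0.32. CCNE1 exceeded CCNE2 by 3.57-fold and 3.42-fold. CCNE2 had the lowest level of the 9 in both groups, and with 1 added to each FPKM its log2 ratio was 0.18.

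The order of the cyclins by level in siNT was CCND3, CCNB1, CCND1, CCND2, CCNB2, CCNA2, CCNA1, CCNE1 and CCNE2. In siPAX9 it was CCND3, CCND1, CCND2, CCNB1, CCNA2, CCNE1, CCNB2, CCNA1 and CCNE2. CCND1 was at 0.800 times the level of CCNB1 in siNT and at 4.99 times in siPAX9. CCND2, CCNB2 and CCNA2 lay close together in siNT, at 22.0, 20.4 and 18.6, and were spread over 22.6, 4.71 and 6.12 in siPAX9. CCNA2, CCNE1 and CCNB2, at 6.12, 5.15 and 4.71, were neighbours in siPAX9. Whether such neighbours differ beyond the spread between samples cannot be said from pooled values.

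Summed over the 9 genes, the cyclin FPKM was 212 in siNT and 164 in siPAX9. The A-type and B-type cyclins made up 40.7% of this sum in siNT and 14.4% in siPAX9. The class sums were 30.7 and 8.61 for A (log2 ratio -1.83), 55.5 and 14.9 for B (-1.89), 120 and 134 for D (0.15), and 5.52 and 6.66 for E (0.27). D-type cyclins thus made up 56.7% of the sum in siNT and 81.5% in siPAX9.

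**Figure D4:**
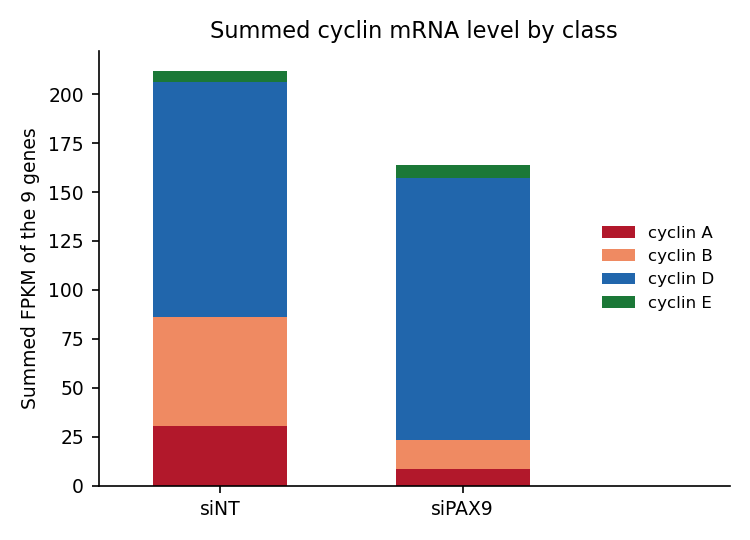
Summed FPKM of the 9 cyclin genes in siNT and siPAX9 (y axis from 0), stacked by class. The A and B segments together are 86.2 in siNT and 23.6 in siPAX9, and the D segment is 120 and 134.

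CCNA1, CCNA2, CCNB1 and CCNB2 also stood at the low end of the cyclin genes with a mean FPKM of at least 1. CCNB3, a B-type cyclin best known from meiosis, was below that level, at 0.126 in siNT and 0.156 in siPAX9. Of 27 cyclin genes with a mean FPKM of at least 1 (these 9 and 18 of 21 others), CCNA1, CCNB2, CCNB1 and CCNA2 had the 4 lowest log2 ratios and CCND1 had the highest. Of the 18 others, 1 was at least 2-fold lower (6.9% of all 13264 symbols were), 0 were at least 2-fold higher (6.82% of all were), and their median log2 ratio was 0.01. The 1 was CCNJL, at 3.46 in siNT and 1.60 in siPAX9, which was not past 2-fold after scaling to equal totals (-0.92) or with 1 added to each FPKM (-0.78). Next came CCNF, a cyclin F-box protein that peaks in G2 (5.90 and 3.16, log2 ratio -0.90). The cyclins that serve transcription and its kinases (CCNC, CCNH, CCNK, CCNL1, CCNL2, CCNT1 and CCNT2) ranged from -0.65 to 0.34.

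The catalytic partners of the cyclins were examined as a list of 9 CDK, CKS and CDK-activating kinase genes, of which 4 were at least 2-fold lower, 0 were higher, and the median log2 ratio was -0.98. For this and the following lists, the shares of all 13264 symbols were 6.9% at least 2-fold lower and 6.82% at least 2-fold higher. CDK1, the partner of cyclins A and B in G2 and mitosis, was at 25.4 FPKM in siNT and at 8.17 in siPAX9 (log2 ratio -1.64). CCNB1 stood at 1.38 times the level of CDK1 in siNT and at 1.25 times in siPAX9. CDK2, the partner of cyclins E and A, was at 14.3 and 11.4 (-0.33). CCNA2 stood at 1.30 times the level of CDK2 in siNT and at 0.536 times in siPAX9, and CCNE1 at 0.301 and 0.451 times. CDK4 and CDK6, the partners of the D-type cyclins, were lower in siPAX9, at 51.1 and 25.9 for CDK4 (-0.98) and at 14.0 and 6.33 for CDK6 (-1.14). CCND1 was therefore at 0.549 times the level of CDK4 in siNT and at 1.97 times in siPAX9. The small CDK-binding subunits CKS1B (41.7 and 16.1) and CKS2 (64.5 and 27.1) were the other members past 2-fold. CDK6 was not past it after scaling to equal totals (-0.95).

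Of 8 genes for CDK inhibitors, 6 had a mean FPKM of at least 1, with 3 at least 2-fold higher, 2 at least 2-fold lower and a median log2 ratio of 0.50. CDKN1A, which encodes p21, an inhibitor of cyclin A, cyclin B and cyclin E kinases, was at 69.0 in siNT and 373 in siPAX9 (log2 ratio 2.44). CDKN1C, for p57, was at 4.76 and 16.0 (1.74), and CDKN2D, an inhibitor of CDK4 and CDK6, was at 1.06 and 2.71 (1.36). CDKN1B, for p27, was at 30.7 and 23.9 (-0.36). The members past 2-fold in the other direction were CDKN3, a phosphatase gene named with this family that is expressed in G2 and mitosis (12.5 and 3.44), and CDKN2C (4.87 and 2.04). With 1 added to each FPKM, CDKN2D (0.85) and CDKN2C (-0.95) were not past 2-fold. CDKN2A and CDKN2B, which are deleted in MCF10A cells, were listed at 0 in both groups.

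Among the 5 genes for the phosphatases and kinases that switch cyclin-CDK complexes on and off, 2 were at least 2-fold lower and 0 were higher. These were CDC25C, which activates cyclin B kinase (5.14 and 0.955, log2 ratio -2.43), and PKMYT1, which inhibits it (5.57 and 2.57, -1.12). The median of the list was -0.32. PKMYT1 was not past 2-fold after scaling to equal totals (-0.92) or with 1 added to each FPKM (-0.88), and neither gene reached a mean FPKM of 5. With 1 added to each FPKM, the log2 ratio of CDC25C was -1.65.

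Cyclins are destroyed through ubiquitin, the A and B types by the anaphase-promoting complex and the E types largely by SCF ligases. Of 29 genes on that list, 5 were at least 2-fold lower and 1 was higher, with a median log2 ratio of -0.28. UBE2C (32.3 and 6.95, log2 ratio -2.22) and UBE2S (52.1 and 20.0, -1.38), which are ubiquitin-conjugating enzymes of the anaphase-promoting complex, and its activator CDC20 (23.5 and 7.88, -1.57) were lower in siPAX9 together with the cyclins that they help to remove. UBE2D1, another conjugating enzyme of the complex, was at 11.5 and 11.7 (0.03), and its inhibitor FBXO5 was at 8.21 and 3.87 (-1.09). The log2 ratios of the 13 core subunits of that complex on the list ran from -0.60 (ANAPC16) to 0.04 (ANAPC4), and its other activator FZR1 was at 10.0 and 7.85 (-0.36). FBXW7, which recruits cyclin E to SCF, was at 13.3 and 25.2 (0.92), and SKP2 was at 20.9 and 11.6 (-0.84). FBXO4, described as a cyclin D1 receptor of SCF, was at 7.20 and 3.20 (-1.17), and AMBRA1, also on the list, was at 5.90 and 6.37 (0.11). CRYAB, the described cofactor of FBXO4 and the only member past 2-fold in the other direction, was at 0.0441 and 4.73. It reached a mean FPKM of 1 only through siPAX9. After scaling to equal totals, FBXO4 (-0.98) and FBXO5 (-0.89) were no longer past 2-fold and FBXW7 (1.12) was, which gave 3 lower and 2 higher.

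The transcription factors that act on these cyclin promoters were examined as a list of 20 E2F, RB and DREAM complex genes. Of the 18 with a mean FPKM of at least 1, 4 were at least 2-fold lower and 0 were higher, with a median log2 ratio of -0.48. FOXM1, an activator of G2 and M genes, was at 15.5 and 4.88 (-1.67), and MYBL2, which binds CHR-containing promoters with the MuvB core, was at 10.3 and 3.71 (-1.48). The others were RBL1, for the pocket protein p107 (3.35 and 1.55, -1.11), and E2F5 (7.27 and 3.49, -1.06). RBL1 and E2F5 were not past 2-fold after scaling to equal totals (-0.92 and -0.87) or with 1 added to each FPKM (-0.77 and -0.88). E2F1 was at 1.97 and 1.22 (-0.70). RB1 was at 18.4 and 16.5, a log2 ratio of -0.15 that became 0.04 after scaling to equal totals. None of the 3 NF-Y subunits was past 2-fold. Among 16 regulators of D-type cyclin expression, 15 had a mean FPKM of at least 1 and 0 were past 2-fold. MYC was at 394 and 248, KLF4 at 8.39 and 16.2 (0.95) and the AP-1 subunit JUN at 12.4 and 21.8 (0.82). The AP-1 subunits FOS, at 60.6 and 34.3 (-0.82), and FOSL1, at 23.3 and 15.3 (-0.61), and NFKB1 (-0.77) had ratios below 0. After scaling to equal totals, KLF4 (1.14) and JUN (1.01) were past 2-fold, and KLF4 was also past it after centring on the median of all symbols (1.02).

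Over all 8 lists, 18 of 102 distinct genes with a mean FPKM of at least 1 were at least 2-fold lower and 4, CRYAB among them, were at least 2-fold higher, where all 13264 symbols had 6.9% and 6.82%. After scaling to equal totals, the counts were 11 and 7, and the shares of all symbols were 4.74% lower and 9.15% higher. The lists were chosen with earlier results of these data known, so these counts are a description and no test of an excess.

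**Figure D5:**
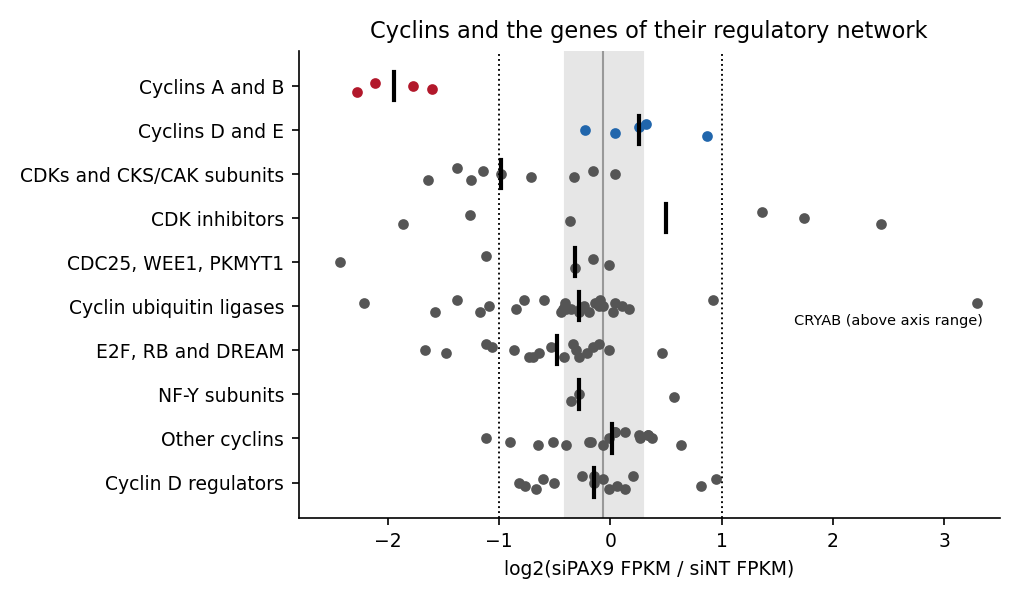
Log2 ratio of siPAX9 to siNT FPKM (x axis) of each gene in the 2 cyclin groups and in the 8 lists, with a black bar at each median, dotted lines at a 2-fold difference, and the quartiles and median of all 13264 symbols as a grey band and line. Points are genes with a mean FPKM of at least 1 (CRYAB, at 6.75, is drawn at the right edge), and the points of cyclins A and B all lie left of the 2-fold line.

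The genes whose 2 group levels lay nearest to those of the most abundant member of each class were looked up among 11674 loci with 1 symbol, as the distance over the log2 FPKM of the 2 groups. For CCNA2 these were MKI67 (18.4 and 6.21, distance 0.0258), PYCR1 and CPNE2. MKI67 encodes the proliferation antigen Ki-67. For CCNB1 they were PSIP1, TMEM173 and HPRT1, for CCND3 FAM120A, AK3 and PDIA3, and for CCNE1 USP46, TAF3 and PEX11A. With 2 values per gene, this likeness holds only a level and a ratio.

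On UCSC hg19, the locus of CCNA1 lay on chromosome 13 from 37005967 to 37017019, that of CCNB1 on chromosome 5 from 68462837 to 68474070, and that of CCNE1 on chromosome 19 from 30302888 to 30315224. In GENCODE these 3 loci hold no other protein-coding gene, and the same was true of CCNB2 (chromosome 15, 59397284 to 59417244) and CCND3 (chromosome 6, 41902671 to 42016632). The locus of CCNA2 (chromosome 4, 122722472 to 122745088) also spans EXOSC9, a gene on the opposite strand whose own row was at 11.8 in siNT and 7.58 in siPAX9. The locus of CCND2 (chromosome 12, 4357933 to 4414522) also spans part of CCND2-AS1, whose own row was at 0.336 and 0.451, and part of a protein-coding gene without a symbol on the same strand. CCND1 (chromosome 11, 69455873 to 69469242) overlaps the end of LTO1 on the opposite strand. The locus of CCNE2 (chromosome 8, 95835518 to 95907482) also spans part of INTS8 on the opposite strand, at 10.7 in both groups and so well above CCNE2 itself. Whether the reads were counted by strand is not given in the sources used here, so shared reads could touch the values of CCNA2, CCND1, CCND2 and CCNE2. The loci of CCNB1, CCNB2 and CCND3 also hold annotated non-coding genes, and shared reads could touch those values too.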

How the data were processed

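Poly(A)+ RNA of MCF10A cells (2 groups of 3 samples) was sequenced as single-end reads. In Partek Flow, Bowtie 2 placed the reads on the genome (UCSC hg19) and Cufflinks estimated levels. The Bowtie 2 and Cufflinks versions and the scaling between libraries are not given in the sources used here. The authors deposited 1 pooled FPKM per locus and group. The table gives no counts, so the depth behind a value is unknown. Its columns of fold change, test statistic, p-value and q-value are the authors' own comparison and were not used.

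Ratios were computed here from the FPKM as deposited, as log2 of siPAX9 over siNT. A symbol with several rows was given the row with the highest mean FPKM. Symbols with a mean FPKM of at least 1 formed the background, and 2-fold was the threshold. Listed genes with an FPKM below 0.001 in a group were given no printed ratio, and a symbol at 0 in 1 group was counted as past 2-fold in the background. Row selection, ratios and the motif search were tested on simulated data.

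Named genes were the 9 cyclins, 14 fixed regulators, up to 4 genes past 2-fold per list and direction, and the 3 nearest loci. Cell type markers came from lists of their own, and the markers named from them, MYC, JUN, FOS, FOSL1, NFKB1, KLF4, CCNF, ANAPC4, ANAPC16, UBE2D1, FBXO5, AMBRA1, CCNB3 and the transcription cyclins, which the rule does not give, were named after their values were seen. The sums of the basal and leukocyte marker lists are not reported here, and not every listed marker is named. The cyclins, lists and motifs were chosen with earlier results of these data known. Promoters came from RefSeq (GRCh38.p14), and their printed parts were matched to GRCh37, which shares chromosome coordinates with hg19. Gene positions came from GENCODE release 44 on GRCh37. Python 3.11.15, numpy 2.4.6, pandas 2.3.3 and matplotlib 3.10.9 were used. The alternatives were a pseudocount of 1, centring, equal FPKM totals, summed rows, other folds and other FPKM minimums.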

Additional observations from a re-analysis of the deposited data

How the results depend on the processing

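The log2 ratios of the 9 cyclins, the 4 class sums and 29 other named genes were recomputed with 1 added to each FPKM, after centring on the median, after scaling to equal FPKM totals and with rows summed (for class sums: scaling, centring, the median of members and loci with 1 symbol). Of 168 such values, 166 moved by less than 1.5-fold, the limit used because no spread between samples is known. The exceptions were CDC25C (-1.65) and CRYAB (2.46) with 1 added to each FPKM. The number of cyclins at least 2-fold lower was 4 under every alternative scaling and at a fold of 1.5, and 2 at a fold of 4. The number at least 2-fold higher went from 0 to 1, CCND1, under equal totals and at a fold of 1.5. For the 8 lists together, the 18 lower genes became 11 with 1 added to each FPKM or under equal totals, 33 at a fold of 1.5 and 2 at a fold of 4. The 4 higher genes became 7 under equal totals, 8 at a fold of 1.5, 2 at a fold of 4 and 2 with a mean FPKM of at least 5. Of all symbols, 4.74% were lower and 9.15% higher under equal totals, and 1.56% were at least 4-fold lower. Shares of all symbols were not computed for the other settings, so those counts have no such scale. No paired analysis was possible because the table holds 1 pooled value per group, and for the same reason no sample could be left out.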

Other observations

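Promoter content was set beside the change of all genes, as a description chosen after the cyclin promoters were seen. Of 9480 symbols with a mean FPKM of at least 1 and a RefSeq promoter sequence, 6.21% were at least 2-fold lower in siPAX9 and 5.41% at least 2-fold higher. Of the 386 whose promoter held at least 2 CCAAT boxes and a CHR-type hexamer, CCNB1 and CCNB2 among them, 17.1% were at least 2-fold lower and 5.44% at least 2-fold higher, with a median log2 ratio of -0.20 against -0.08 for all. Of all symbols with at least 2 CCAAT boxes, with or without a CHR-type hexamer, 7.78% were at least 2-fold lower, and of all with a CHR-type hexamer 9.59% were. Of the 49 with GCGGAACGG, 3 were at least 2-fold lower and 3 at least 2-fold higher. Genes with several starts were counted if any start held the letters.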
